A study of Mus musculus with 16 samples.

Results

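Dppa2, Dppa3, Dppa4 and Dppa5a carry the name developmental pluripotency associated, because each is read in the early embryo and in embryonic stem cells and switched off as cells differentiate. These 4 genes, of 27807 in the expression table, were taken by name in a series on mouse embryonic stem cells lacking Taf4a. They were chosen by their normalised counts in wild-type and mutant libraries over all stages, which had been seen, so those counts and the differences between them are given as a description, with no test. The protein made from Taf4a belongs to TFIID, the complex through which the TATA-binding protein reaches promoters.

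Poly-A RNA was sequenced at 4 stages, in embryonic stem cells (ES) and in embryoid bodies, the floating aggregates in which such cells differentiate. Embryoid bodies were sampled before retinoic acid was added (EB4), after the first day of retinoic acid (EB5), and later in the treatment (EB8), when the labels name them neural precursor cells. Each stage was sampled in wild-type cells (labelled Taf4+/+, here WT) and in cells homozygous for a null allele (titled Taf4a-/-, genotype Taf4-/-, here KO), with 2 libraries in each of the 8 groups. Per the study's methods, the lines came from blastocysts of crosses between Taf4a+/- animals, with 2 independent lines of each genotype, were kept on fibroblast feeders in serum with LIF, and carried an allele in which internal exons were deleted in every cell, so that loss of Taf4a preceded the first sample. The methods describe the 2 libraries of a group as biological replicates from those lines, but the labels tie no library to a line. The p-values given below thus rest on the spread between 2 libraries a group, pooled over the 8 groups. They take all libraries as independent, which would not hold where stages share a line.

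Dppa2 and Dppa4 encode nuclear proteins with a SAP domain that bind each other and sit on chromatin. They are known for activating genes of the 2-cell embryo, such as Dux and the Zscan4 family, and for keeping a set of promoters free of DNA methylation. Dppa3, also called Stella or PGC7, is a maternal factor of the egg and a marker of primordial germ cells, and its protein binds Uhrf1, the partner of the maintenance methyltransferase Dnmt1. Dppa5a, also called Esg1, encodes a small RNA-binding protein with a KH domain, related to the oocyte proteins Ooep and Khdc3. All 4 are usual markers of pluripotent mouse cells.

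On build NCBI37 (mm9), with positions from GENCODE release M1, Dppa4 (ENSMUSG00000058550) lies at chr16:48283848-48294405 and Dppa2 (ENSMUSG00000072419) at chr16:48310590-48319836, both on the plus strand, with 16185 bases between them. Dppa3 (ENSMUSG00000046323) lies at chr6:122576428-122580290 on the plus strand. Dppa5a (ENSMUSG00000060461) lies at chr9:78214859-78215984 on the minus strand. The annotated exons cover 1948 bases of Dppa2, 1534 of Dppa4, 892 of Dppa3 and 619 of Dppa5a, and all are protein coding. The 4 genes therefore occupy 3 separate loci.

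Parts of their exons also occur elsewhere in the genome. Of the windows of 54 bases, the length of the reads, 52.9% of those in Dppa2, 40.1% in Dppa4, 19.8% in Dppa3 and 60.2% in Dppa5a matched at least 1 other place exactly. Copies of parts of Dppa5a overlap several annotated genes, of which Dppa5b shares the most windows (248) and Gm15310, Gm6083, Gm6798 and Gm10112 share 109, 99, 94 and 8. How reads with several matches were counted is not given in the sources used here, so the levels of all 4 genes are uncertain to that extent. Among Dppa5b and the copies with Gm names present in the table, the highest count in any library was 137 reads, for Dppa5b. Counts of Pigp, Cacna1d, Dmgdh and Rhox3g-ps, which also overlap copies, were not examined. Copies outside annotated genes have no count, and 1 of them, at chr9:78120000-78120853, shares 248 windows with Dppa5a. The value of 137 therefore sets no limit on reads placed elsewhere.

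Values are normalised counts, the reads of a gene divided by the size factor of its library, and whole reads recovered from them gave depths of 22442118 to 40711826. The floor of detection was set at 3 reads in a library and covers counting error only. A fold given as at least a value sets the mean of the 2 libraries of the higher group against that floor. Summed markers of neural precursors reached 24373 to 27025 normalised counts in the WT EB8 libraries and 4790.4 to 4834 in KO EB8, whereas 5 ES cell markers gave 4702 to 6287 in WT EB8 and 23109 to 24218 in KO EB8. Sox2, which neural precursors also express, made up most of the ES cell marker sum in WT EB8, with a mean of 4596 there and 5211 in KO EB8. Of the 6 neural precursor markers 5 were matched and none was at 0. The neural precursor label of the KO EB8 group thus stands beside low levels of its markers. Taf4a itself read 1591 to 1960 normalised counts in WT and 1973 to 2400 in KO libraries, and counts per gene do not resolve the deleted exons, so it gives no check of the labels.

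Some libraries stood apart in the level of whole chromosomes. This level is the median over the genes of a chromosome of the log2 difference from the mean of all 16 libraries. Genes of chromosome X stood at 0.35 to 0.54 in the 4 KO replicate 2 libraries and at 0.47 in WT ES replicate 2, against -0.25 to -0.16 in all others. Genes of chromosome 8 stood at 0.40 to 0.41 in replicate 1 of the WT embryoid bodies and at -0.16 to 0.03 in all others, and genes of chromosome 11 at 0.18 to 0.28 in the 4 KO replicate 1 libraries. The Y-linked gene Eif2s3y read 841 to 1323 normalised counts in the 6 libraries of WT embryoid bodies and 2248 in WT ES replicate 1, but 3.99 in WT ES replicate 2 and 1.94 to 92.1 in the KO libraries. Between WT and KO embryoid bodies, genotype and the level of Y-linked genes thus cannot be told apart, and their part in the levels of the Dppa genes was not tested.

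Dppa2 fell with differentiation in WT and stayed near its ES level in KO. The WT libraries read 2771 and 2815 normalised counts in ES, 607 and 167 in EB4, 343 and 154 in EB5, and 78.8 and 37.1 in EB8. The KO libraries read 2686 and 3016 in ES, 1336 and 2723 in EB4, 1672 and 2354 in EB5, and 1688 and 3055 in EB8. Both genotypes overlapped in ES, and from EB4 on each KO library was above each WT library. The group means at EB8 were 57.9 ± 29.5 in WT and 2372 ± 967 in KO (SD, n = 2), 2.07% and 83.2% of the ES mean of the same genotype. In bulk RNA a smaller number of expressing cells and less RNA in each cell cannot be told apart.

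Dppa4, the binding partner and neighbour of Dppa2, also fell in WT, and in KO it came down further from its ES level than Dppa2 did. Its WT libraries read 2845 and 2905 normalised counts in ES, 1309 and 414 in EB4, 607 and 195 in EB5, and 141 and 85.8 in EB8. Its KO libraries read 2565 and 2557 in ES, 1567 and 2847 in EB4, 1053 and 1512 in EB5, and 1075 and 1239.9 in EB8. In ES, both KO libraries of Dppa4 were below both WT libraries, the only such case among the 4 genes, by 0.17 on the log2 scale (difference -0.17, SE 0.55). By EB8 the WT mean had reached 3.94% of its ES value (113 ± 38.9, SD, n = 2) and the KO mean 45.2% (1158 ± 117, SD, n = 2).

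Dppa3, the maternal and germ cell factor, varied most between libraries of a group. The WT libraries read 904 and 1222 normalised counts in ES, 184 and 383 in EB4, 122 and 389 in EB5, and 16.8 and 102 in EB8. The KO libraries read 2069 and 862 in ES, 1951 and 2033 in EB4, 1296 and 1278 in EB5, and 1399 and 659 in EB8. The KO EB4 libraries were close to each other and above both WT ES libraries, while the KO ES libraries lay on either side of WT. In KO ES replicate 1, where Dppa3 was highest, genes of chromosome 6 stood at -0.25 on the log2 scale against the mean of all libraries. At EB8 the mean was 59.2 ± 60.0 in WT and 1029 ± 523 in KO (SD, n = 2), so that the SD of the WT group was as large as its mean.

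Dppa5a had by far the most reads of the 4. The WT libraries read 13360.3 and 38420.3 normalised counts in ES, 3718 and 1764 in EB4, 1530.05 and 1451 in EB5, and 98.7 and 246 in EB8. The KO libraries read 18548 and 23607 in ES, 13035 and 26039.7 in EB4, 10344 and 19793 in EB5, and 5686 and 6976 in EB8. Both KO ES libraries lay between the WT ES libraries, of which replicate 2 is one that stands apart on chromosome X. The EB8 means were 172 ± 104 in WT, 0.665% of the WT ES mean, and 6331 ± 913 in KO (SD, n = 2), 30.0% of the KO ES mean.

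**Figure D1:**
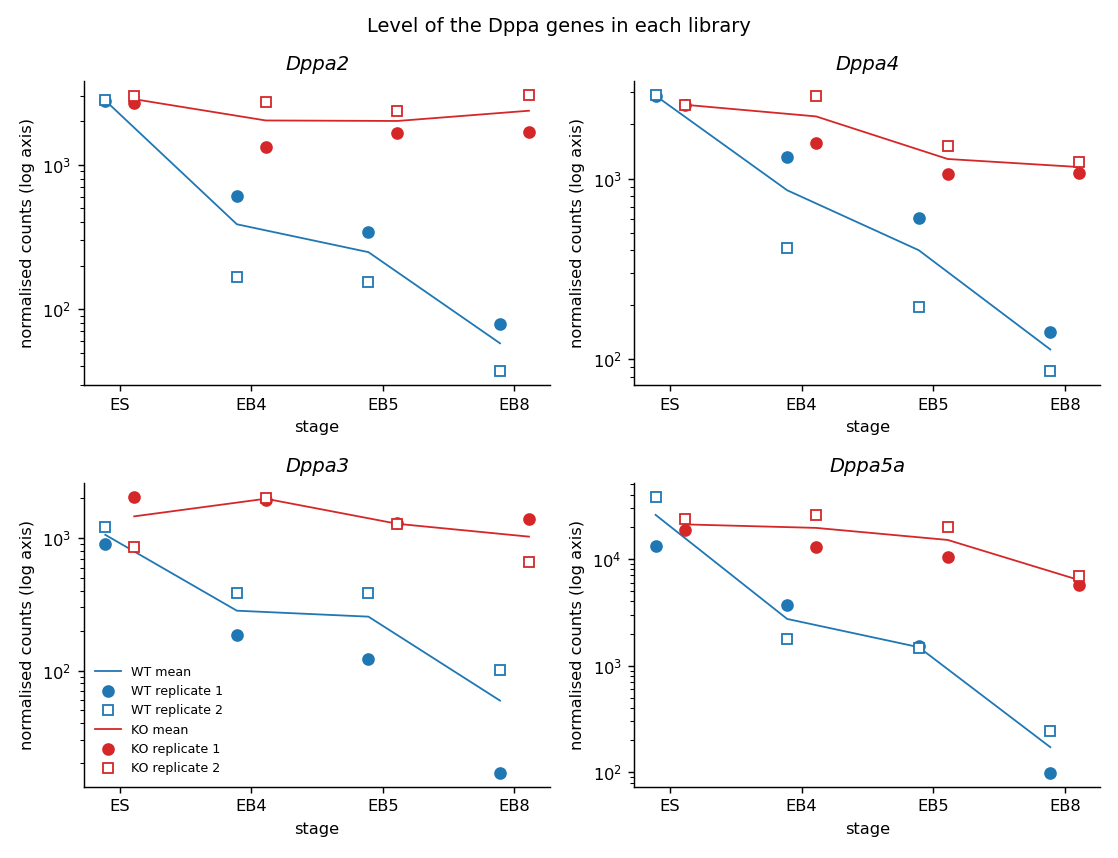
Normalised counts of Dppa2, Dppa4, Dppa3 and Dppa5a on a log axis in each of the 16 libraries, by stage, with WT in blue and KO in red, a filled circle for replicate 1, an open square for replicate 2 and lines through the group means. The genotypes overlap or lie close in ES, and from EB4 on both KO points lie above both WT points in every panel, with WT Dppa2 at 78.8 and 37.1 and KO Dppa2 at 1688 and 3055 in EB8.

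Sorted by group mean, the groups of Dppa2 formed 3 steps. The 5 highest, KO ES, WT ES, KO EB8, KO EB4 and KO EB5, each overlapped the next, and WT EB4 overlapped WT EB5, with WT EB8 apart below them. Dppa5a gave a like order in which WT ES, KO ES, KO EB4 and KO EB5 overlapped in turn, and KO EB8, WT EB4, WT EB5 and WT EB8 then followed without overlap. For Dppa4 the WT ES group had the highest mean, apart from the next group, KO ES, and WT EB8 lay below all others. Dppa3 was highest in KO EB4, which overlapped KO ES, and lowest in WT EB8. WT EB8 was the lowest group for each of the 4 genes.

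Per kilobase of exon, Dppa5a was also the most abundant. In WT ES the mean levels were 41826 normalised counts per kilobase for Dppa5a, 1874 for Dppa4, 1434 for Dppa2 and 1192 for Dppa3. In KO EB8 the order of the other three changed, with 10228 for Dppa5a, 1217 for Dppa2, 1154 for Dppa3 and 755 for Dppa4. In WT EB8 the levels per kilobase were 278 for Dppa5a, 73.8 for Dppa4, 66.4 for Dppa3 and 29.7 for Dppa2.

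Expressed as KO minus WT on the log2(normalised count + 1) scale, the 4 genes differed little in ES and by 3.38 to 5.37 in EB8. The ES differences were 0.03 (SE 0.59) for Dppa2, -0.17 (SE 0.55) for Dppa4, 0.35 (SE 0.75) for Dppa3 and -0.11 (SE 0.55) for Dppa5a, each smaller than its error. Summed markers of feeder fibroblasts (8 genes) gave 1059 to 2733 normalised counts in WT ES and 213 to 505 in KO ES, and their part in the ES levels was not tested. The Dppa5a value in ES was 0.65 without WT ES replicate 2 and -0.88 without WT ES replicate 1. In EB4 the differences were 2.58 for Dppa2, 1.52 for Dppa4, 2.90 for Dppa3 and 2.85 for Dppa5a, and in EB5 they were 3.11, 1.87, 2.55 and 3.26 in the same order of genes. These values have the same errors as in ES, because the model shares 1 spread for each gene across groups.

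In EB8 the differences were 5.37 for Dppa2, 3.38 for Dppa4, 4.49 for Dppa3 and 5.33 for Dppa5a. The ratios of the group means at EB8 were 41.0, 10.2, 17.4 and 36.8 in the same order. All 4 genes had both KO libraries above both WT libraries in EB4, EB5 and EB8, a pattern that 25.3%, 26.7% and 30.4% of the 16124 tested genes also had at those stages. Since the genes were picked with this pattern in view, nothing is read from the count. In ES no member had this pattern, which 19.0% of genes had, and 1 member, Dppa4, had the opposite one, as did 20.7% of genes.

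**Figure D2:**
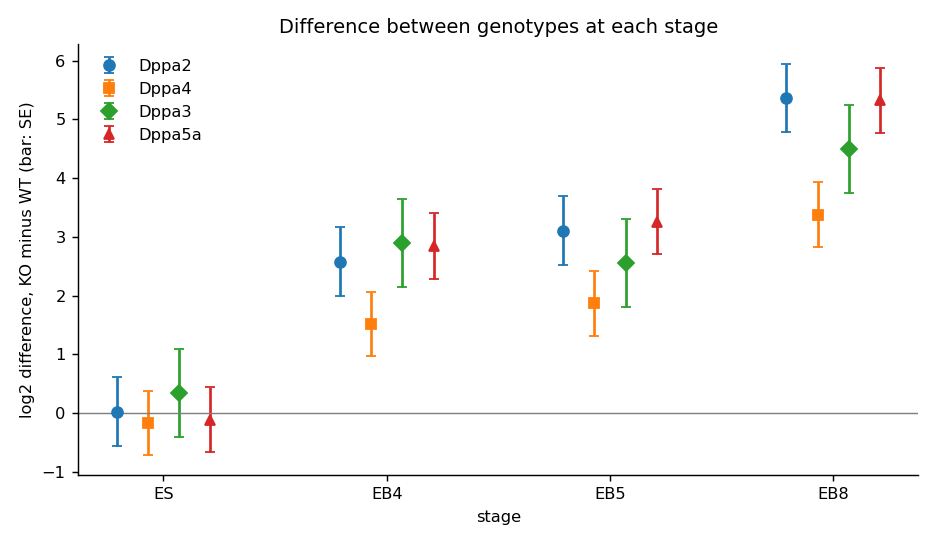
Difference KO minus WT in log2(normalised count + 1) for the 4 genes at ES, EB4, EB5 and EB8, with bars for the SE of the 8-group model. Dppa2, Dppa3 and Dppa5a lie between 2.55 and 3.26 at EB4 and EB5 and between 4.49 and 5.37 at EB8, and Dppa4 is lowest at each stage, at -0.17, 1.52, 1.87 and 3.38.

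Some of these sizes rested on single libraries. The EB4 difference of Dppa2 was 3.50 without WT EB4 replicate 1 and 1.65 without WT EB4 replicate 2, and that of Dppa4 was 2.35 and 0.69. The EB5 difference of Dppa4 was 2.68 without WT EB5 replicate 1 and 1.05 without WT EB5 replicate 2. The EB8 difference of Dppa3 was 3.23 without WT EB8 replicate 1 and 5.76 without WT EB8 replicate 2. On leaving out each library of the comparison in turn, the EB8 differences ran from 4.83 to 5.90 for Dppa2, 3.03 to 3.74 for Dppa4 and 4.67 to 5.98 for Dppa5a.

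Without the KO replicate 2 libraries, which stand apart on chromosome X, the differences of Dppa2 were 2.06 in EB4, 2.86 in EB5 and 4.94 in EB8, and those of Dppa4 were 1.09, 1.61 and 3.28. Those of Dppa3 were 2.87, 2.56 and 5.03 and those of Dppa5a 2.35, 2.79 and 5.18. Without WT replicate 1, which stands apart on chromosome 8, Dppa2 gave 3.68 in EB5 and 5.90 in EB8, Dppa4 gave 3.74 in EB8, Dppa3 gave 2.38 in EB4 and 1.72 in EB5, and Dppa5a gave 3.38, 3.30 and 4.67 at the 3 stages. KO stayed above WT in all of these.

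Read over time within a genotype, all 4 genes had both EB8 libraries below both ES libraries in WT, as did 35.3% of tested genes. In KO this held for Dppa4 and Dppa5a only, against 35.9% of tested genes. The log2 change from ES to EB8 was -5.66 for Dppa2, -4.70 for Dppa4, -4.62 for Dppa3 and -7.17 for Dppa5a in WT. In KO it was -0.33, -1.15, -0.47 and -1.73 in the same order. The KO change minus the WT change was 5.34 (SE 0.83) for Dppa2, 3.55 (SE 0.78) for Dppa4, 4.15 (SE 1.06) for Dppa3 and 5.44 (SE 0.78) for Dppa5a. Without WT ES replicate 2 the WT changes were -5.65, -4.68, -4.40 and -6.41 in the same order, and Dppa5a moved furthest. Without KO ES replicate 2 the KO changes were -0.24, -1.15, -1.11 and -1.56, and without KO EB8 replicate 2 they were -0.75, -1.25, 0.07 and -1.88, so that the KO change of Dppa3 did not keep its sign.

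The members did not all vary together between libraries of a group. In WT embryoid bodies, Dppa2 and Dppa4 were higher in replicate 1 at all 3 stages, while Dppa3 was higher in replicate 2 at all 3. In KO embryoid bodies, Dppa2, Dppa4 and Dppa5a were higher in replicate 2 at all 3 stages, and Dppa3 was not. The KO EB8 libraries show the contrast most plainly, in which replicate 1 had the lower count of Dppa2 (1688 against 3055) and the higher count of Dppa3 (1399 against 659). The labels do not say whether a replicate number marks a line, but the levels of chromosomes X, 8 and 11 followed the number over the KO stages and over the WT embryoid bodies, and the steady order of the replicates above stands beside that.

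Over the 16 libraries, Pearson's r of the log2 values was 0.954 between Dppa2 and Dppa4, 0.936 between Dppa2 and Dppa5a, 0.942 between Dppa4 and Dppa5a, 0.912 between Dppa3 and Dppa5a, 0.821 between Dppa2 and Dppa3 and 0.781 between Dppa4 and Dppa3. These values are a description, because the libraries share the 8 groups that set most of the range.

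The ratio of Dppa2 to Dppa4, neighbouring genes whose proteins act as a pair, shifted with stage and genotype. In ES it was 0.974 and 0.969 in the WT libraries and 1.05 and 1.18 in the KO libraries. In the WT embryoid bodies it lay below the ES values in each library, at 0.464 and 0.404 in EB4, 0.564 and 0.787 in EB5, and 0.560 and 0.432 in EB8. In KO it was 0.853 and 0.957 in EB4, 1.59 and 1.56 in EB5, and 1.57 and 2.46 in EB8, so that at every stage both KO libraries were above both WT libraries. The ratio is of normalised counts and not per length, and it rests on the same values that chose the genes.

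**Figure D3:**
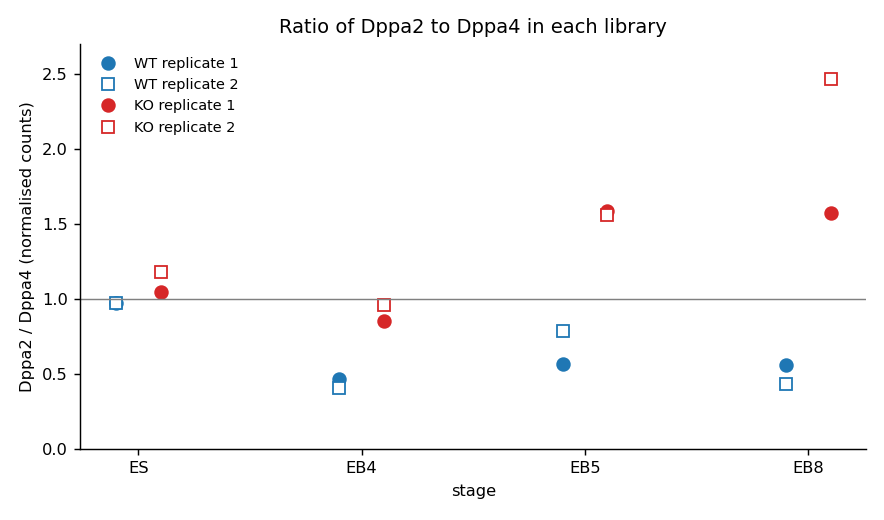
Ratio of Dppa2 to Dppa4 normalised counts in each library on a linear axis, by stage and genotype, with a filled circle for replicate 1, an open square for replicate 2 and a line at 1. WT libraries go from 0.974 and 0.969 in ES to 0.560 and 0.432 in EB8, and KO libraries from 1.05 and 1.18 to 1.57 and 2.46.

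For each member, the 5 other genes with the most similar pattern were taken by Pearson's r of log2 values over the 16 libraries, among 16120 genes. For Dppa2 they were Zfp936 (0.980), Gm10139 (0.978), Gm2381 (0.974), Eng (0.970) and 3830431G21Rik (0.968). For Dppa4 they were Gm17067 (0.984), EU599041 (0.979), Ripk3 (0.975), Gm14124 (0.971) and Morc1 (0.969), the last being its neighbour on chromosome 16. Dppa3 was followed less closely, by Gm12139 (0.953), 4833407H14Rik (0.947), Gm14136 (0.944), Rims1 (0.944) and Tfap2c (0.942), a transcription factor of germ cells and trophoblast. Dppa5a was nearest to Ooep (0.988), Esrrb (0.988), Tcl1 (0.985), Gtsf1l (0.980) and Nanog (0.977), of which Ooep is a neighbour and Esrrb and Nanog are pluripotency regulators. Ranked by Spearman's rho instead, 3, 0, 0 and 2 of the 5 stayed among the first 5 for Dppa2, Dppa4, Dppa3 and Dppa5a.

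Of the other genes named Dppa, Dppa1 was at or below 1 read in every library and was not tested. Dppa5b, the near copy of Dppa5a on chromosome 9, read 25.5 and 109 normalised counts in WT ES, 5.48 and 5.36 in EB4, 1.88 and 0 in EB5, and 2.10 and 0 in EB8. In KO it read 34.9 and 69.3 in ES, 33.9 and 57.4 in EB4, 31.3 and 52.4 in EB5, and 9.50 and 18.1 in EB8. It was thus far below Dppa5a in each library, and 242 of its 540 windows also matched the Dppa5a locus, so that reads from those cannot be told apart. In limma over all genes, Dppa5b was higher in KO at EB8 by 3.01 on the log2 scale (adjusted p = 0.0203), at least 4.35-fold against the floor of 3 reads per library, and this call was lost without WT EB8 replicate 2 (adjusted p = 0.156) or KO EB8 replicate 2 (adjusted p = 0.120). With a pseudocount of 5 the difference was 1.62 (adjusted p = 0.0668), and with the compared groups only the adjusted p was 0.0720.

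Genes within 200 kilobases of the members were then read, since 2 of the members sit side by side. Of 34 such genes in the table, 21 were tested, and in EB8 limma called 8 higher and 1 lower in KO, against 10.4% and 12.5% of all tested genes. Beside Dppa2 and Dppa4, 2 genes were tested. Morc1, a factor needed for silencing of transposons in male germ cells, lies 111514 bases from Dppa2 and read 37.8 and 10.6 normalised counts in WT EB8 against 218 and 395 in KO EB8 (log2 difference 3.80, SE 0.82, adjusted p = 0.00621). That call was lost without WT EB8 replicate 2 (adjusted p = 0.0682), and Gm7204 did not pass (log2 difference 1.33, adjusted p = 0.214).

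The locus of Dppa3 holds other pluripotency genes. Of its 8 tested neighbours, 4 were higher in KO EB8. Gdf3, a TGF-beta ligand 16323 bases away, read 17.9 and 37.1 in WT EB8 against 447 and 503 in KO EB8 (log2 difference 4.15, adjusted p = 0.000132). Nanog, 77217 bases away, was higher by 5.41 (adjusted p = 7.67e-05), Mfap5 by 3.39 (adjusted p = 0.00674) and the glucose transporter gene Slc2a3 by 1.83 (adjusted p = 0.00676). Slc2a3 lost its call without WT EB8 replicate 1 (adjusted p = 0.0654) or KO EB8 replicate 1 (adjusted p = 0.0692). Apobec1, Gm10224, Rimklb and Foxj2 did not pass, at 1.04, 0.58, -0.25 and 0.06.

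Around Dppa5a, 3 of 11 tested neighbours were higher in KO EB8 and 1 was lower. Ooep, 7932 bases away, was higher by 4.77 (adjusted p = 0.000193), the RNA helicase gene Ddx43 by 2.41 (adjusted p = 0.00403), and Dppa5b has been described above. The kinase gene Ick was lower by 1.06 on the log2 scale (difference -1.06, adjusted p = 0.00800), a call lost without WT EB8 replicate 2 (adjusted p = 0.0515) or KO EB8 replicate 1 (adjusted p = 0.0737). The other 7, which include the translation factor gene Eef1a1 (-0.63, adjusted p = 0.0583) and 7SK (-1.63, adjusted p = 0.395), did not pass. At each locus, then, genes that passed lay among genes that did not.

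**Figure D4:**
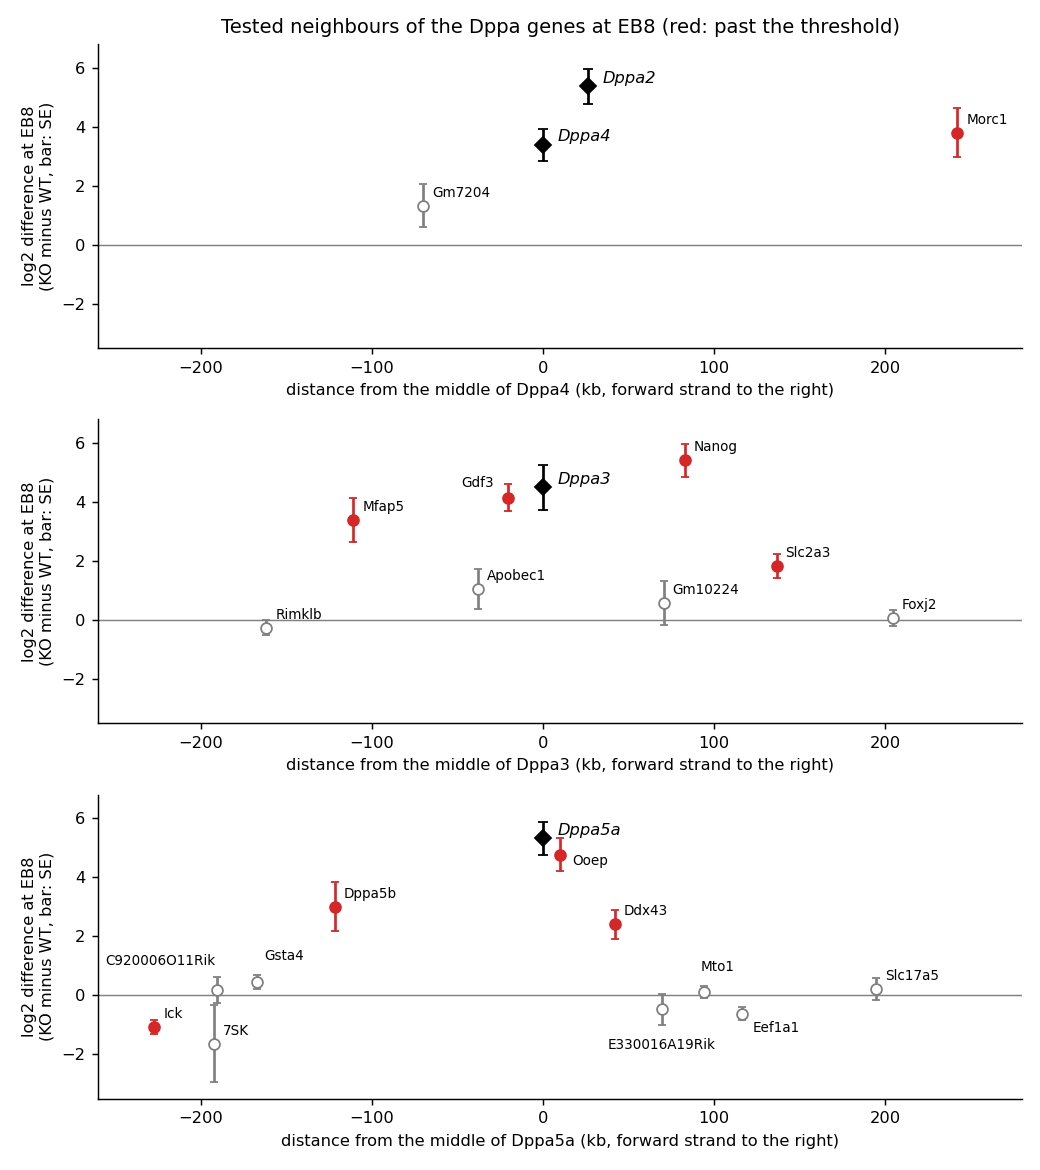
Difference KO minus WT in EB8, in log2(normalised count + 1), of the members and their tested neighbours against the distance in kilobases from the middle of Dppa4, Dppa3 or Dppa5a, with bars for the SE, black diamonds for the members and red points for neighbours past the threshold. Gdf3 and Nanog beside Dppa3 lie at 4.15 and 5.41 and Ooep beside Dppa5a at 4.77, while Foxj2 lies at 0.06.

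The genes that the members are known to act with were read from lists of 109 distinct tested genes in all, neighbours included. In ES, limma called none of them (0.0% of all genes higher and 0.0% lower), with 14 at an unadjusted p under 0.05, 0 by edgeR and 4 by DESeq2. In EB4 it called 17 higher and 0 lower (2.75% and 3.37% of all genes), in EB5 25 higher and 0 lower (2.17% and 2.17%), and in EB8 55 higher and 7 lower (10.4% and 12.5%). The counts at EB4 and EB5 changed with the fit, to 0 at EB4 and 11 at EB5 with the compared groups only. They also fell without KO EB4 replicate 2, KO EB5 replicate 2, WT EB5 replicate 1 or WT EB5 replicate 2. Leaving out a library leaves 1 in its group, so the fall does not show that the differences rest on that library. Rescaling by upper quartiles moved the median difference of all genes at EB8 from -0.03 to 0.11 and changed the calls over all genes from 1677 higher and 2020 lower to 2278 higher and 1615 lower. The lists were chosen with results known, and each is described by its counts and median. For every count of KO against WT in EB8 below, the shares over all genes are 10.4% higher and 12.5% lower.

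Of the 2-cell genes downstream of Dppa2 and Dppa4, 15 were tested and 6 were higher in KO EB8, 0 lower, with a median log2 difference of 4.24 against -0.03 for all genes. Genes were tested on their mean over all 16 libraries, KO EB8 included, so a gene high only there could enter through it. The count and the median are thus not independent of that filter. Gm13078 read 2.10 and 0 normalised counts in WT EB8 against 99.2 and 773 in KO EB8 (adjusted p = 0.00503), at least 137-fold for the KO mean. Zscan4b read 1.05 and 0 in WT EB8 against 16.9 and 231 in KO EB8 (adjusted p = 0.00448), at least 39.0-fold for the KO mean. For both genes, KO EB8 replicate 1 alone gives a smaller bound. The deubiquitinase gene Dub1 was higher by 4.83 on the log2 scale (adjusted p = 0.0170). Zscan4c, at 11.6 and 3.18 in WT EB8 against 39.0 and 467 in KO EB8, did not pass (adjusted p = 0.0600). Zscan4 and Dub genes are near-identical copies, so the share of reads each received is uncertain.

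Their levels rested largely on 1 library. Leaving aside Eif1ad, which is read in every library, all 14 other genes had both KO EB8 libraries above both WT EB8 libraries. Of all tested genes, 30.4% had that pattern, and the 14 include near-identical copies. Since genes could pass the filter through their KO EB8 values, nothing is read from this count. KO EB8 replicate 2 exceeded replicate 1 in each of the 14 by 2.64 to 13.7 times, with a median of 7.33. Their summed level was 644 and 4798 normalised counts in KO EB8, 162 and 37.1 in WT EB8, 75.8 and 497 in KO EB5, and 53.7 and 280 in WT ES. Without KO EB8 replicate 2, 1 gene was called, Gm13078 lost its call (adjusted p = 0.0512) and Dub1 did too (adjusted p = 0.150). Without WT EB8 replicate 2, 2 genes were called and Dub1 was lost (adjusted p = 0.162). Dppa2 and Dppa4 in those KO EB8 libraries differed far less, at 1688 against 3055 and 1075 against 1239.9. In KO ES, where Dppa2 and Dppa4 were at their highest or near it, the summed level was 29.1 and 50.7, and in KO EB4 it was 51.4 and 68.9. The part of Dppa2 and Dppa4 in the levels of the 2-cell genes was not tested.

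Among 13 tested genes that write, maintain or remove DNA methylation, 1 was higher and 2 were lower in KO EB8, with a median of 0.21. Of all tested genes 10.4% were higher and 12.5% lower, so nothing is read from these counts. The count in either direction was 1 without WT EB8 replicate 1, WT EB8 replicate 2 or KO EB8 replicate 1. Dnmt3l, the cofactor of the de novo methyltransferases, fell in WT from 11536 and 13850 normalised counts in ES to 144 and 68.8 in EB8, and read 6356 and 10182 in KO ES and 2206 and 1519 in KO EB8 (EB8 log2 difference 4.19, SE 0.49, adjusted p = 0.000178). It also passed in EB4 (2.52, adjusted p = 0.0154) and EB5 (2.51, adjusted p = 0.0196). The EB4 call was lost without WT EB4 replicate 1 (adjusted p = 0.0783) or KO EB4 replicate 2 (adjusted p = 0.170), and the EB5 call without WT EB5 replicate 2 (adjusted p = 0.144) or KO EB5 replicate 2 (adjusted p = 0.240).

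Uhrf1, the protein partner of Dppa3, read 5198 and 5896 in WT EB8 against 4702 and 5551 in KO EB8, a log2 difference of -0.12 (SE 0.16) that did not pass (adjusted p = 0.640). Dnmt1 differed by -0.50 (adjusted p = 0.0373), a call lost on leaving out any of the 4 EB8 libraries (adjusted p from 0.107 to 0.144) or with upper-quartile rescaling (adjusted p = 0.0925). Tet3, which oxidises methylcytosine in the zygote, differed by -1.73 (adjusted p = 0.0241), and lost its call without WT EB8 replicate 1 (adjusted p = 0.0588), WT EB8 replicate 2 (0.133) or KO EB8 replicate 1 (0.166). Dnmt3a, Dnmt3b, Tet1 and Tet2 did not pass in EB8, at -0.61, 1.07, 0.52 and 0.72. Tet2 passed in EB4 (2.51, adjusted p = 0.00434), where it read 653 and 969 in WT and 3083 and 6714 in KO, and that call was lost without KO EB4 replicate 2 (adjusted p = 0.0700).

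A list of oocyte genes, with the KH-domain relatives of Dppa5a (Ooep and Khdc3) and other genes of the subcortical maternal complex and the oocyte, gave 3 higher and 1 lower of 5 tested in KO EB8, counts that held without any single EB8 library. Ooep read 23.1 and 34.9 normalised counts in WT EB8 against 750 and 859 in KO EB8. Khdc3, named 2410004A20Rik in the table, read 11.6 and 1.06 in WT EB8 against 92.9 and 69.2 in KO EB8 (4.00, SE 0.66, adjusted p = 0.00132). Tle6, a further member of the maternal complex, read 159 and 111 in WT EB8 against 1720 and 1107 in KO EB8 (3.37, adjusted p = 0.000149), above its ES level in KO (242 and 244), whereas Dppa5a in KO EB8 was below its ES level. Zbed3 was lower by 1.21 on the log2 scale (difference -1.21, adjusted p = 0.00176).

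Of 11 tested genes of primordial germ cells, the cells that Dppa3 marks, 7 were higher and 1 was lower in KO EB8, with a median of 1.48. Prdm14 read 8.40 and 24.4 in WT EB8 against 372 and 323 in KO EB8 (4.49, adjusted p = 0.000716). Alpl, the tissue-nonspecific alkaline phosphatase gene, was higher by 3.75 (adjusted p = 2.37e-05) and Tfap2c by 3.50 (adjusted p = 0.000717). These genes were also read in KO ES, at means of 818 for Prdm14, 4051 for Alpl and 2853 for Tfap2c. Kit, Ifitm1, Ifitm3 and Lin28a were the others called higher. Sox17 was the gene called lower (difference -2.68, adjusted p = 0.0460). Nanos3 (0.86, adjusted p = 0.267) and Dnd1 (1.17, adjusted p = 0.200) did not pass. Prdm1, which specifies germ cells, did not pass (1.20, adjusted p = 0.0978), and the count of calls in either direction was 4 without WT EB8 replicate 2. Trophoblast markers, a list that shares Tfap2c, summed to 641 to 1239 normalised counts in WT EB8 and 2521 to 5955 in KO EB8. Tfap2c made up most of the KO EB8 sum, with a mean of 2999 against 259 in WT EB8. Elf5 and Gata3 had lower means in KO EB8 (72.5 against 101 and 334 against 471). Cdx2, Eomes and Hand1 had higher ones (101 against 38.5, 416 against 17.9 and 315 against 51.8). The part of these markers in the result was not tested.

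Germ cell genes that are silenced by promoter methylation in somatic cells numbered 17 tested, of which 13 were higher and 0 lower in KO EB8, with a median of 3.30. Rpl10l was higher by 4.89 (adjusted p = 0.000316) and Tex19.1 by 4.12 (adjusted p = 4.32e-05). Asz1 was higher by 4.42 (adjusted p = 0.0279), at least 13.7-fold, and Dazl, an RNA-binding regulator of germ cells, by 3.30 (adjusted p = 0.0266). The count was 6 without WT EB8 replicate 2 or KO EB8 replicate 1 and 7 without KO EB8 replicate 2. Without the same 3 libraries in that order, Asz1 gave adjusted p = 0.177, 0.0854 and 0.121, and Dazl gave 0.183, 0.119 and 0.0784.

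Of 23 pluripotency regulators, 19 were higher in KO EB8 and 0 lower, with a median of 3.50, which lies among the values of the members (3.38 to 5.37). Nanog read 118 and 313 in WT EB8 against 7989 and 8408 in KO EB8, and Tcl1 and Fgf4 were higher by 4.93 (adjusted p = 0.00128) and 4.80 (adjusted p = 0.00174). Pou5f1, the gene of Oct4, was higher by 3.94 (adjusted p = 5.57e-05), and Zfp42 by 2.93 (adjusted p = 0.0199), a call lost without WT EB8 replicate 2 (adjusted p = 0.131) or KO EB8 replicate 2 (adjusted p = 0.118). Sox2, which neural precursors also express, differed by 0.15 (adjusted p = 0.697). The part of remaining undifferentiated cells in the levels of the 4 Dppa genes was not tested.

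Genes of the formative and primed epiblast, a state that follows the naive one in which Dppa3 is high, gave 1 higher and 2 lower of 9 in KO EB8, with a median of 0.51. With 10.4% of all tested genes higher and 12.5% lower, nothing is read from these counts. Etv4 was higher by 2.72 (adjusted p = 0.00326), whereas Sox3, also a neural gene, was lower by 4.58 on the log2 scale (difference -4.58, adjusted p = 6.65e-05), and Foxd3 differed by -3.09 (adjusted p = 0.00627). Foxd3 lost its call without WT EB8 replicate 2 (adjusted p = 0.0706) or KO EB8 replicate 2 (adjusted p = 0.0592). Fgf5 did not pass (0.51, adjusted p = 0.479).

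**Figure D5:**
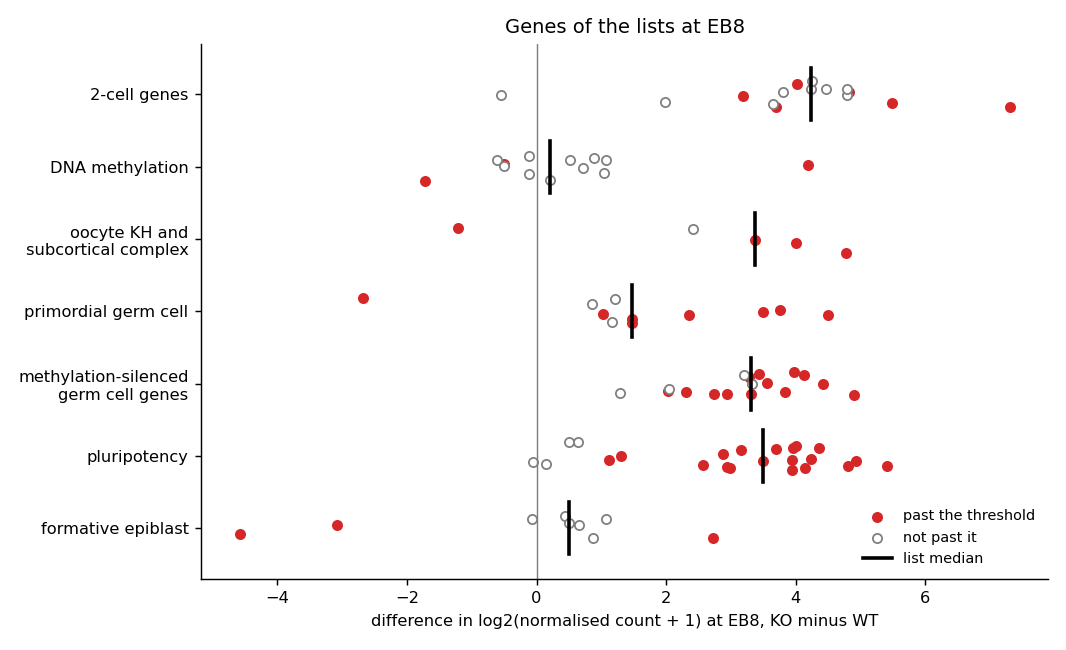
Difference KO minus WT in EB8, in log2(normalised count + 1), of each tested gene in the lists, with the lists one above the other, red points for genes past the threshold, a black bar at each list median and a grey line at 0. The 2-cell, germ cell and pluripotency lists have medians of 4.24, 3.30 and 3.50, and the DNA methylation list has 0.21.

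Between ES and EB8 within a genotype, which share no libraries across genotypes, the listed genes gave 7 higher and 65 lower of 109 in WT (24.0% and 22.8% of all genes) and 23 higher and 35 lower in KO (19.7% and 18.0%). All 23 pluripotency regulators were lower in WT EB8 and 18 in KO EB8. For the 2-cell genes, 0 of 15 passed limma in WT, with 0 at an unadjusted p under 0.05, 0 by edgeR and 0 by DESeq2, while 13 were higher and 1 lower in KO. These 2-cell counts too are not independent of the filter, which took in the KO EB8 values. Among germ cell genes 11 were lower in WT, and in KO 2 were higher and 0 lower. For the KO change minus the WT change, limma called 34 of the 109 above 0 and 2 below 0 (3.85% and 3.44% of all genes). Other listed genes lay on either side of 0 without a call. Fewer were called without WT ES replicate 2, WT EB8 replicate 2, KO ES replicate 1, KO ES replicate 2 or KO EB8 replicate 2. With upper-quartile rescaling, the calls of this difference over all genes went from 620 above and 555 below 0 to 908 and 424. Dppa2, Dppa3, Dppa4 and Dppa5a, with differences of 3.55 to 5.44 between the changes, are not among these 109.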

How the data were processed

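The authors sequenced poly-A libraries as single-end reads of 54 bases on an Illumina GAIIx. The submitters' processing notes name CASAVA 1.7 and 1.8, TopHat2 2.0.10, HTSeq 0.5.4p3 and DESeq2 1.0.19 on mm9. Neither the annotation release nor strand use is given in the sources used here. The deposited table holds a normalised signal, each gene's count over the size factor of its library, for 27807 genes in 16 libraries. In each library 100% of values were whole multiples of a step (tolerance 0.01), which gave back the reads.

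Positions came from GENCODE release M1 on NCBI37, in which 27603 identifiers were found and 204 were not. Windows of 54 bases of the exons were searched for exactly in both strands of the genome.

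limma 3.58.1 (R 4.3.3) fitted 8 group means to log2(normalised count + 1), with eBayes and a trend, for the 16124 genes with a mean of at least 10. This scale understates the change of genes with low counts. Residual and prior degrees of freedom were 8 and 4.27. Benjamini-Hochberg adjusted p-values were taken over all tested genes at 0.05. edgeR 4.0.16 and DESeq2 1.42.0 served as alternatives on the recovered reads, as did other pseudocounts, filters, scalings, a fit of the compared groups only, a replicate block, and leaving out each library. The fit was tried on simulated counts, drawn with the same dispersion for every gene and with independent libraries. That setting lacks the spread and replicate structure of these data, so it checks the code and not the error rates here. Other steps used Python 3.11.15.

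The 4 genes and all lists were chosen with earlier results of these data known. Named were the 4 genes, other Dppa genes, up to 3 genes with the largest difference past the threshold in each list and comparison, defining genes of a list whether they passed or not, tested neighbours within 200 kilobases, and the 5 genes most like each member over 16 libraries.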

Additional observations from a re-analysis of the deposited data

Results flagged for a closer look

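For 20 of the other named genes, the change from ES to EB8 differed between the genotypes by the test of that difference in limma (KO change minus WT change, log2 scale, 2 libraries in each of the 4 groups, adjusted p over all tested genes). The 4 Dppa genes are not among them because they were not tested. Of the 20, 8 kept their call when each library was left out in turn: Dnmt3l at 4.84 (adjusted p = 0.00334), Ooep at 4.92 (0.00500), Tle6 at 2.84 (0.0106), Alpl at 3.49 (0.00203), Nanog at 4.84 (0.00480), Gdf3 at 4.53 (0.00334), Pou5f1 at 3.72 (0.00336) and Sox3 at -3.84 (0.00540).

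The other 12 lost it without at least 1 library. The 2-cell genes gave 9.40 for Gm13078 (adjusted p = 0.0227), 6.85 for Dub3 (0.0292) and 5.87 for B020004J07Rik (0.0203), and each lost its call without WT ES replicate 2, WT EB8 replicate 2, KO ES replicate 1 or KO EB8 replicate 2, as Dub3 also did without WT EB8 replicate 1. Among germ cell genes, Asz1 gave 7.45 (0.0311) and Dazl 5.52 (0.0310), and both kept their call only without WT ES replicate 1 or WT EB8 replicate 1. Without WT ES replicate 2, in which Dazl read 1582 normalised counts against 111 in replicate 1, the value of Dazl was 3.61 (adjusted p = 0.0581). Tuba3a gave 5.01 (0.0226), Prdm14 3.57 (0.0416), Tfap2c 3.60 (0.0144), Khdc3 (2410004A20Rik) 4.69 (0.0127), Fgf4 4.70 (0.0330), Mfap5 4.15 (0.0341) and Dnmt1 -0.92 (0.0298). With upper-quartile rescaling the median of this difference over all genes was 0.16 instead of -0.04.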

How the results depend on the processing

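The differences between genotypes of the 4 Dppa genes were recomputed 240 times, and 230 moved by less than the spread between replicates. The 10 others each left out a WT library, with values from 1.65 to 3.50 for Dppa2 in EB4, 0.69 to 2.35 for Dppa4 in EB4, 1.05 to 2.68 for Dppa4 in EB5, 3.23 to 5.76 for Dppa3 in EB8 and -0.88 to 0.65 for Dppa5a in ES.

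On leaving out 1 library, the 6 calls among 2-cell genes in EB8 became 1 to 7, the 3 among DNA methylation genes 1 to 2, the 8 among primordial germ cell genes 4 to 7 and the 13 among germ cell genes 6 to 12. Over all 109 listed genes the calls ran from 0 to 3 in ES, 0 to 17 in EB4, 0 to 18 in EB5 and 17 to 50 for the difference of the changes. The 6 calls among 2-cell genes were 13 with a pseudocount of 5, 1 with a mean of at least 50 (fewer genes tested), and 12 by DESeq2. DESeq2 on the recovered reads also gave 4 listed genes in ES instead of 0, 34 in EB4 instead of 17, 44 in EB5 instead of 25 and 60 for the difference of the changes instead of 36. Fitting the compared groups only gave 0 in EB4 and 11 in EB5. The cause of these shifts was not tested beyond the construction named.

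The labels do not say what a replicate number shares. With the number as a replicate block, the listed genes gave 0, 24, 30 and 62 calls in ES, EB4, EB5 and EB8, all within 1.5 times the count without it. As a hint from the data, differences between replicates 2 and 1 over all tested genes correlated at 0.23 to 0.42 between KO stages and 0.52 to 0.61 between WT embryoid bodies, but at -0.18 to -0.05 between WT ES and WT embryoid bodies. Between WT and KO of a stage, r was 0.33 in ES, -0.06 in EB4, -0.21 in EB5 and -0.13 in EB8. A block with the KO numbers exchanged, chosen after seeing the data, gave 11 calls among 2-cell genes. For single named genes, 4687 recomputed results stayed on their side of the threshold, 283 dropped below it and 112 rose past it. None changed sign while called. Each group had 2 libraries, and depths were 22442118 to 40711826 reads. Genes within the floor of 3 reads in a group, such as Dppa5b, Gm13078 and Zscan4b in WT EB8, give only lower bounds.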
